A study of Homo sapiens with 6 samples.

Results

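Interferon-induced genes were followed with and without the cAMP analogue 8-Br-cAMP in NCI-H295A, a steroid-producing cell line established from a human adrenocortical carcinoma. A list of 39 such genes was searched for on Affymetrix arrays by gene symbol, and 37 had a probe set annotated to that symbol alone. STAT2 and IFI30 had none and were not analysed here. The 37 were members of 11963 genes that could be named in this way. Where a gene had several probe sets, the one that stood for it was chosen by a measured value, the highest mean log2 signal over the 6 arrays. The genes themselves were listed with earlier results of these data known, and their differences are given as a description of these arrays.

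The control group was 3 plates left without the analogue, and the treated group was 3 plates exposed to 8-Br-cAMP at 1 mM for 18 h. Both groups grew as monolayers of a single line in RPMI medium with fetal calf serum, insulin, selenium and gentamicin. 8-Br-cAMP enters cells and activates the pathway that ACTH uses in the adrenal cortex. No interferon was added in either group, so the values describe the genes at the level they had in culture. Whether the plates were independent cultures is not stated. The p-values therefore cover the spread among these arrays alone, and that spread may be technical. In RNA from a whole plate, fewer cells that express a gene and less RNA per cell cannot be told apart.

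Interferons are cytokines that bind receptors on almost every nucleated cell. Receptor-bound Janus kinases activate STAT proteins. Type I interferon assembles a complex with IRF9 that binds the interferon-stimulated response element (ISRE), and interferon gamma acts through a STAT dimer that binds the gamma-activated sequence (GAS). The induced proteins degrade or trap viral RNA, block virus entry and release, and load peptides on MHC class I molecules. Many of these genes are also transcribed at a low level without infection.

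These elements could be read in the promoters of many of the genes. RefSeq promoter sequences (GRCh38.p14, from 250 bases before to 50 bases after each start) were matched for 29 of the 39 genes. IRF7, USP18, IFIT2, OAS2, OASL, IFITM2, MX2, GBP2, PML and TRIM22 had no entry. The ISRE was searched as GAAA, any 2 bases and GAAA, the GAS as TTCNNNGAA and the cAMP response element as TGACGTCA, each on both strands. The ISRE letters stood in 19 of the 29 genes, and in 23 of their 40 promoters (57.5%), against 3.57% of 35116 promoters of the same length. The GAS letters stood in 10 of the 29 genes, and in 11 of their 40 promoters (27.5%), against 7.66% of all promoters. The 2 motifs overlapped in BST2, IFI27, IFITM1 and MX1. The cAMP response element was found in 0 of the 29, against 1.85% of all promoters, which says only that these letters are not in these windows. The stretches below are shown for the 4 genes that passed the paired fit (IFI44, IFI44L, EIF2AK2 and OAS1) and, for comparison, for TAP1, BST2, ISG20 and OAS3, which did not pass it. They run 5′ to 3′ on the gene's strand, with the ISRE match in capitals, or the GAS match in OAS1.
IFI44: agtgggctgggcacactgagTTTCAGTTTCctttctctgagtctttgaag
IFI44L: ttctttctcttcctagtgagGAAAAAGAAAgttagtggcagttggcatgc
EIF2AK2: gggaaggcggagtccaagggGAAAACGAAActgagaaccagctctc
TAP1: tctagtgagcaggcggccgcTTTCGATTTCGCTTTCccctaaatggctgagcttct
BST2: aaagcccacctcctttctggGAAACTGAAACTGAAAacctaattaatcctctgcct
ISG20: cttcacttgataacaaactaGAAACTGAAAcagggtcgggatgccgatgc
OAS3: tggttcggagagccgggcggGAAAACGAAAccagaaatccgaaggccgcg
OAS1: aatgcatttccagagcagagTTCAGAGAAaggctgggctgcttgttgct

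In GRCh38.p14 the stretch of IFI44 lies at chr1:78649751-78649800 and that of IFI44L at chr1:78620355-78620404, both on the plus strand. That of EIF2AK2 lies at chr2:37156961-37157006, TAP1 at chr6:32853803-32853858 and BST2 at chr19:17405725-17405780, all on the minus strand. ISG20 lies at chr15:88638927-88638976, OAS3 at chr12:112938442-112938491 and OAS1 at chr12:112906774-112906822, on the plus strand. The ISRE match nearest the start began 6 bases before it in EIF2AK2 (position -6), at -12 in OAS3, -18 in IFI44, -69 in ISG20, -73 in IFI44L, -124 in BST2 and -128 in TAP1. In TAP1 and BST2 a pair of ISRE matches overlap. Among matched genes whose control and treated arrays did not overlap, 7 of 9 with the controls above held an ISRE match, 1 of 2 with the treated arrays above, and 11 of 16 of those that overlapped. A gene without a match, such as OAS1, lacks only the ISRE letters as searched, in the windows searched. These shares are given as a description and were not compared by a test.

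The signal of a probe set is an intensity on a linear scale and is compared here only with the same probe set on other arrays. Of the 37 genes, 31 had a mean log2 signal above the filter level of 5.51 (a signal of 45.5) and entered the fit. IRF7, USP18, OAS2, IFITM1, GBP2 and TRIM22 lay below it. MX2 (5.53) and PSMB9 (5.62) lay just inside the level, and IFITM1 (5.28) and OAS2 (5.25) just outside. IFI44L, IFIT1, PSMB9 and MX2 had treated means below the level, at 5.29, 4.66, 4.74 and 5.44, so their folds are imprecise. They entered the fit through their control signals, and counts over the 31 are therefore a description.

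The arrays numbered 1 stood apart in both groups. Their actin probe sets had 3'/5' ratios of 5.72 (control 1) and 38.8 (8-Br-cAMP 1), where the remaining arrays had 1.93 to 2.41. A high ratio accompanies degraded or short RNA. Markers of the labelled cell type were present. The 9 measured of 11 adrenocortical markers were all above the filter level, and 5 of them rose in the paired fit. Of 8 measured immune markers 7 were below it, with a summed signal of 144 to 182 on controls and 133 to 257 on treated arrays. PTPRC, the pan-leukocyte marker, which is among the 7, had signals of 4.2 to 27.8. Summed fibroblast markers (6 measured, 3 above the level) ran from 248 to 465 on controls and from 284 to 404 on treated arrays, and endothelial markers (5 measured, 2 above) from 183 to 231 and from 305 to 419. Of these VWF rose 8.67-fold in the paired fit (adjusted p = 0.0493). It had 13.2, 17.8 and 123.8 on controls and 292.3, 224.5 and 289.2 on treated arrays. Its control mean of 4.94 lay below the filter level of 5.51. VWF thus entered the fit through its treated signals, and its fold is imprecise. TEK went the other way, with 106, 60.7 and 68.1 on controls and 11.3, 20.7 and 14.2 on treated arrays. Its mean signal lay below the filter level, and it was not tested. CDH5 and KDR, also below the level, differed by -1.01 and -0.38 on the log2 scale, and PECAM1 by -0.02. The part of these markers in the results below was not tested.

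Most interferon-induced genes were lower after 8-Br-cAMP and a few were higher, OAS1 among them. Of the 37 genes, 30 had a lower mean log2 signal in the treated group and 7 a higher one, that is 81.1% lower against 61.1% of all 11963 genes. The median log2 difference was -0.42 over the 37, against -0.16 over all genes. In limma's fit without a block 0 of 31 tested genes passed in either direction at an adjusted p under 0.05, as did 0% of 7927 genes. At an unadjusted p under 0.05 that fit held 9 lower genes (background 7.86%) and 1 higher gene (4.09%). Same-numbered arrays varied together, which a shift shared by the number 1 arrays can give by itself. A second fit took the number as a replicate block and is called the paired fit below. Whether arrays 2 and 3 are rightly paired by number was not settled. In the paired fit 3 of 31 fell (IFI44, IFI44L, EIF2AK2), where 1.96% of all genes fell, and 1 rose (OAS1), where 1.73% rose. Leaving out the 4 genes with a treated mean below the filter level, IFI44L among them, 2 of 27 fell and 1 rose. At an unadjusted p under 0.05 the paired fit held 11 lower genes (14.6%) and 2 higher genes (7.8%). With a common median for all arrays none of the 4 calls held in the paired fit, at adjusted p from 0.0577 to 0.108, and after quantile normalization EIF2AK2 lost its call (0.0611). In the fit without the block 7 genes were at least 2-fold lower at an unadjusted p under 0.05 (4.38%), and 1 was higher (2.64%).

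**Figure D1:**
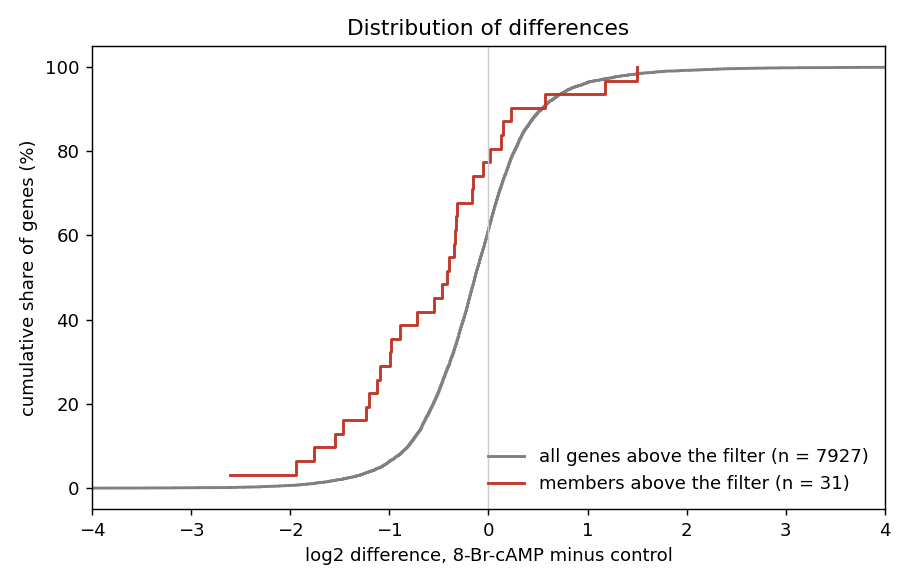
Cumulative share of genes (vertical axis, percent) by log2 difference, 8-Br-cAMP minus control (horizontal axis), for the 31 interferon-induced genes above the filter (red) and all 7927 genes above it (grey). The red line lies left of the grey one over most of the range, with medians of -0.42 and -0.14, and its highest step is IFI16 at 1.5.

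The groups separated completely in some of the genes. All 3 controls lay above all 3 treated arrays in 10 of 31 genes, against 13.6% of all genes tested, and the reverse held in 2 of 31, against 6.32%. The 10 were ADAR, EIF2AK2, GBP1, IFI44, IFI44L, IFIT1, IFITM2, PSMB8, PSMB9 and TAP1, and the 2 were ISG20 and OAS1. IFI44L, IFIT1 and PSMB9 are among those that passed the filter through their controls, and 7 of 27 had the controls above without such genes. By same-numbered pair, 14 of 31 were lower in 3 of 3 pairs (29.5% of all genes) and 2 were higher in 3 of 3 (15.2%). With the 6 genes below the filter level counted as well, USP18 joined the separated genes, giving 11 of 37 with the controls above (11.5%) and 2 of 37 with the treated arrays above (5.05%). By pair that gave 15 of 37 lower (25.8%) and 2 of 37 higher (12.7%). The median of the 31 was -0.22 in pair 1, -0.84 in pair 2 and -0.66 in pair 3, beside -0.03, -0.19 and -0.16 over all genes tested.

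With both number 1 arrays left out, 16 of 31 passed as lower (20.5% of all genes) and 3 as higher (12.8%). The 16 were ADAR, BST2, EIF2AK2, GBP1, IFI27, IFI35, IFI44, IFI44L, IFI6, IFITM3, IRF1, IRF9, ISG15, PSMB8, PSMB9 and TAP1. The 3 were IFI16, OAS1 and OAS3. That fit rests on arrays 2 and 3, which correlated at 0.961 in controls and 0.980 after treatment, and its p-values may reflect technical spread alone. The number 1 arrays carried the high 3'/5' ratios above, and the part of RNA integrity in this difference was not tested.

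**Figure D2:**
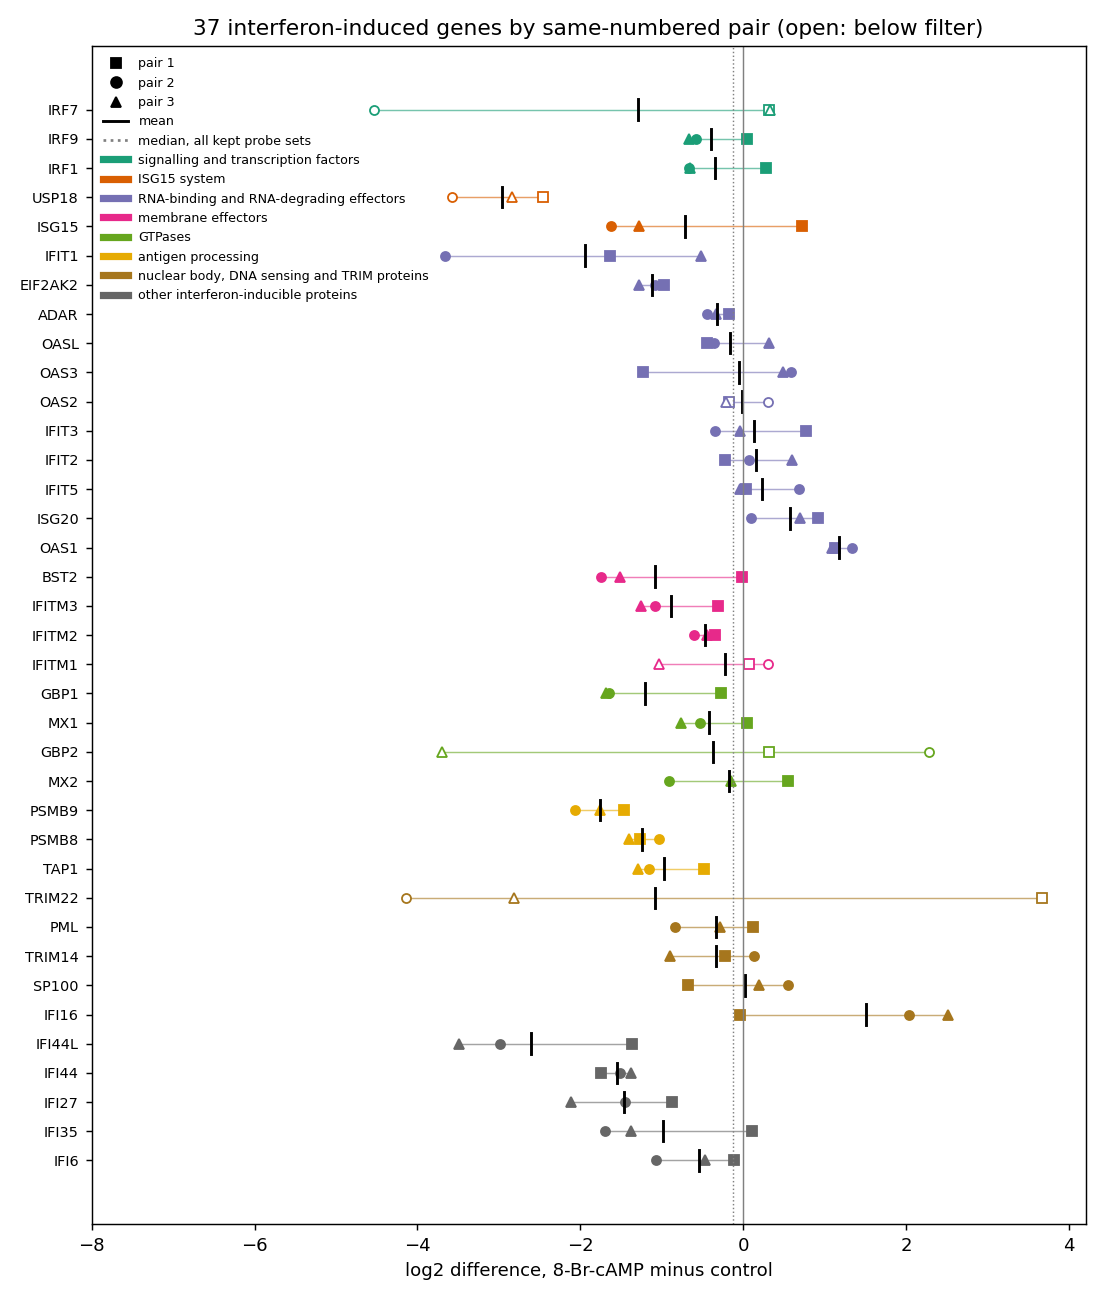
Log2 difference, 8-Br-cAMP minus control (horizontal axis), of 37 interferon-induced genes (rows, coloured by role) in the same-numbered pairs 1, 2 and 3 (squares, circles, triangles), with the mean as a black bar, the genes below the filter as open symbols and the median of all kept probe sets (-0.13) as a dotted line. IFI44, PSMB8, EIF2AK2 and OAS1 have their 3 pairs close together, while IFI16, BST2 and GBP1 are much nearer 0 in pair 1 than in pairs 2 and 3.

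None of the pathway's transcription factors passed in either fit over the 6 arrays. IRF9, the DNA-binding partner of the STAT complex at the ISRE, had signals of 174.8, 264.4 and 243 on controls 1 to 3 and of 180.1, 176.8 and 152.8 on the treated arrays. The groups overlapped because control 1 was low. The log2 difference was -0.40 (paired SE 0.246, adjusted p = 0.401). It was -0.62 without the number 1 arrays (adjusted p = 0.0259). IRF1, a factor induced mainly by interferon gamma and named outside the rule after its values were seen, differed by -0.35 (paired adjusted p = 0.507). It was also low on control 1, at 133.2 against 310.7 and 317.2 on controls 2 and 3. IRF7, the factor that amplifies type I interferon production, lay below the filter level at signals of 1.9 to 46.6.

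The ISG15 system gave 1 tested gene, which did not pass over the 6 arrays. ISG15 is a ubiquitin-like protein that is joined to other proteins, and USP18 removes it and also restrains the type I receptor. USP18 had signals of 34.6, 31.2 and 25 on controls and of 6.3, 2.6 and 3.5 on treated arrays. The groups did not overlap, but every value lay below the filter level, and USP18 was not tested. ISG15, named outside the rule after its values were seen, had 148.9, 137.9 and 117.4 on controls and 246, 45 and 48.3 on treated arrays. 8-Br-cAMP 1 was above all controls and the other 2 treated arrays were below them. It differed by -0.72 (paired adjusted p = 0.434), from 0.72 in pair 1 to -1.62 in pair 2 and -1.28 in pair 3. Without the number 1 arrays it was -1.45 (adjusted p = 0.00677).

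The RNA-directed effectors split. EIF2AK2 encodes PKR, the kinase that halts translation when it meets double-stranded RNA. Its signals were 421.7, 537.8 and 578.6 on controls and 214.7, 252.1 and 237.9 on treated arrays, with every control above every treated array. The paired fit gave a 2.17-fold fall, or -1.12 on the log2 scale (SE 0.204, adjusted p = 0.0440). Without the block the adjusted p was 0.173. Its other kept probe set was also lower on every treated array (-0.89) and did not pass (paired adjusted p = 0.0954).

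IFIT1, which binds viral RNA ends that lack host cap methylation, had 131.1, 107.6 and 64.6 on controls and 42.2, 8.5 and 45.2 on treated arrays. The groups did not overlap, and all treated values lay under the filter level. It differed by -1.94 (95% interval -3.46 to -0.41, paired adjusted p = 0.154), and the 3 pairs ranged from -3.66 to -0.52. None of its relatives passed. IFIT2, IFIT3 and IFIT5 differed by 0.15, 0.13 and 0.23, with paired adjusted p from 0.734 to 0.866, and on the scale set by spike-in controls each of these signs turned. Of these genes, IFIT1 lies next to IFIT5, and IFIT2 next to IFIT3, among protein-coding genes in RefSeq.

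OAS1, a synthetase of 2'-5' oligoadenylates that switches on RNase L, was the 1 gene of the list to rise in the paired fit. Its signals were 186.3, 142.6 and 149.9 on controls and 404.6, 358.8 and 318.6 on treated arrays. Every treated array was above every control, and the 3 pairs lay within 1.09 to 1.33. It rose 2.26-fold (log2 difference 1.18, SE 0.210, adjusted p = 0.0429), and without the block the adjusted p was 0.151. A second kept OAS1 probe set differed by 0.57 with overlapping groups (paired adjusted p = 0.469).

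Neither of the tested relatives of OAS1 passed over the 6 arrays. OAS3, which makes the same second messenger and follows OAS1 directly in RefSeq's gene order, had 381.4, 316.2 and 334.2 on controls and 162.5, 472.1 and 469.3 on treated arrays. 8-Br-cAMP 1 was the lowest of all 6 and the other 2 treated arrays the highest. Its log2 difference was -0.05 (paired adjusted p = 0.955), and 0.53 without the number 1 arrays (adjusted p = 0.0156). It was named outside the rule after its values were seen. OAS2, next to OAS3, lay below the filter level at 28.6 to 45.9. OASL, a relative without synthetase activity, differed by -0.16 (paired adjusted p = 0.836), a sign that turned under other scalings and in its other probe set.

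ADAR, which edits adenosine to inosine in double-stranded RNA, had signals of 1528.4, 1563 and 1526.9 on controls and of 1355.9, 1145.9 and 1213.4 on treated arrays, with no overlap. The difference was small (log2 difference -0.32, 95% interval -0.75 to 0.11, paired adjusted p = 0.365). ISG20, an exonuclease that degrades RNA, had 55.1, 54.2 and 38.3 on controls and 104.3, 58.1 and 61.6 on treated arrays, the other gene with every treated array above every control. The gap between the highest control and the lowest treated array was narrow, and the log2 difference was 0.57 (95% interval -0.32 to 1.46, paired adjusted p = 0.431).

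None of the tested membrane effectors passed over the 6 arrays, and IFITM1 lay below the filter level at 19.9 to 48.7. IFITM3, which blocks fusion of viruses in endosomes, had 486.2, 380.9 and 383.8 on controls and 392.5, 178.8 and 160.8 on treated arrays. Only 8-Br-cAMP 1 reached the control range. It differed by -0.89 (paired adjusted p = 0.120). IFITM2 had 204.1, 215.4 and 200.7 on controls and 159.9, 140.8 and 148.1 on treated arrays, without overlap, and differed by -0.47 (paired adjusted p = 0.283). Both probe sets carry the suffix that Affymetrix gives to sets that may hybridise with related transcripts, and the IFITM genes are close copies that lie side by side, so they may share signal.

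BST2 encodes tetherin, which holds budding virus at the cell surface. Its signals were 3754.4, 902.1 and 915.4 on controls and 3711.1, 268.7 and 320.1 on treated arrays. The number 1 arrays were far above the rest in both groups and alike, while arrays 2 and 3 were lower after treatment. Its log2 difference was -1.09 (paired adjusted p = 0.145), made up of -0.02 in pair 1, -1.75 in pair 2 and -1.52 in pair 3. Without the number 1 arrays it was -1.63 (adjusted p = 0.000101).

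**Figure D3:**
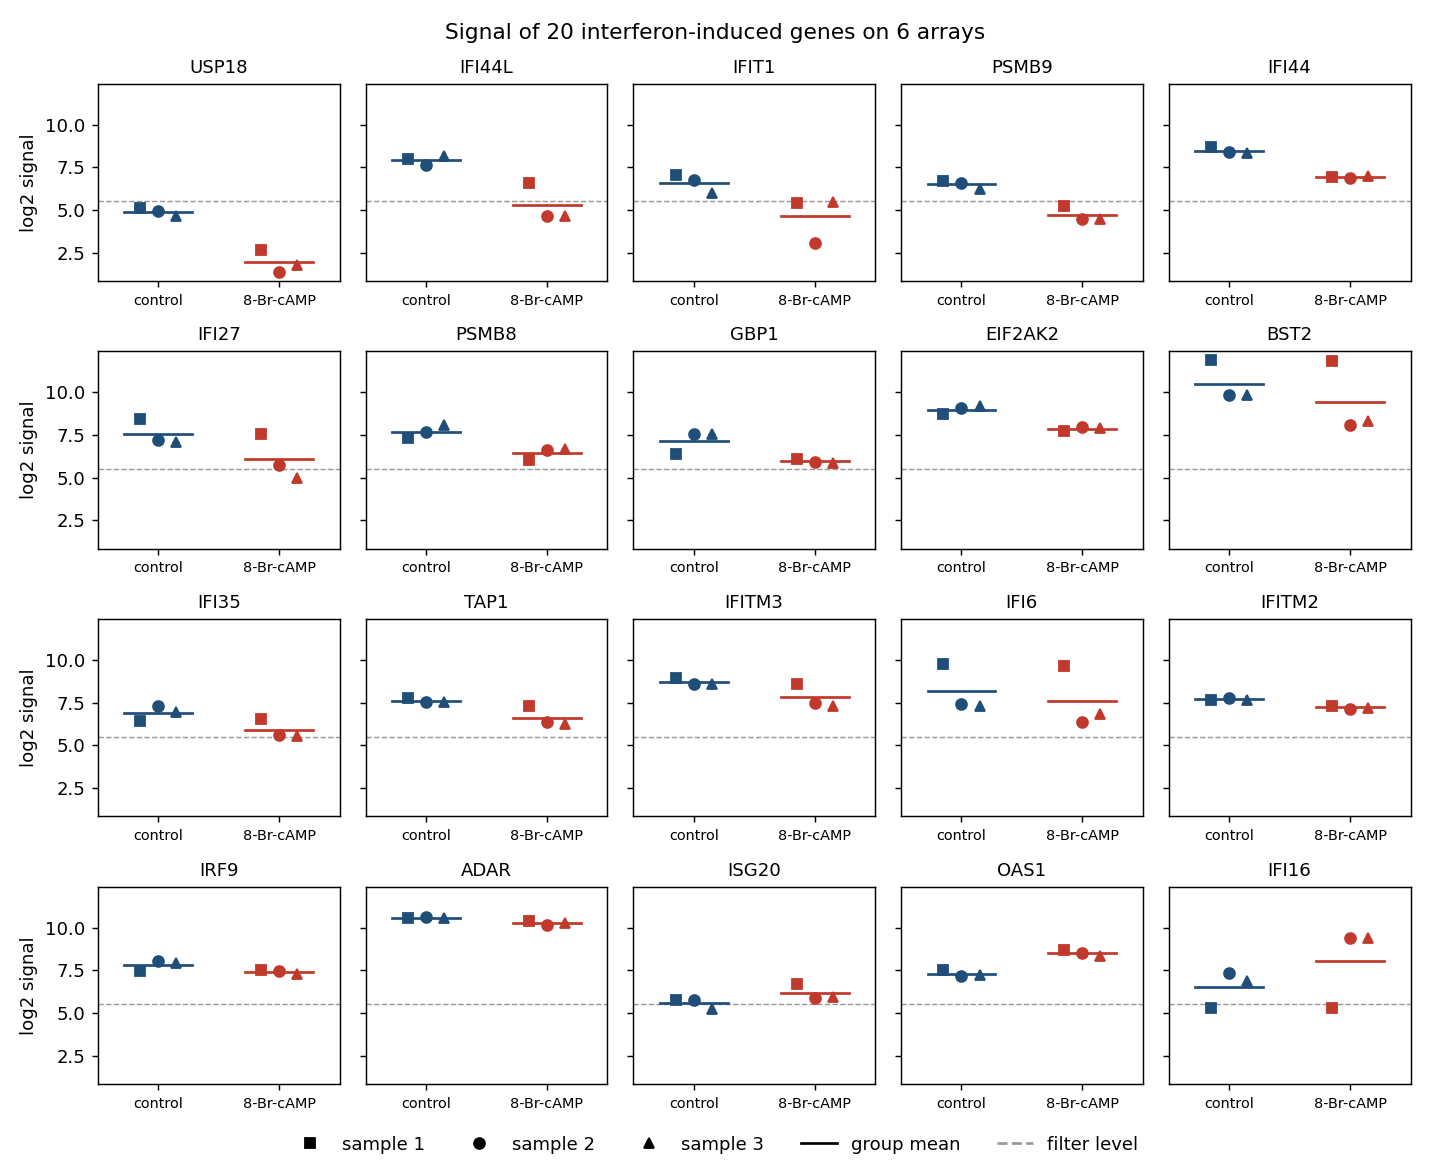
Log2 signal (vertical axis) of 20 interferon-induced genes on 3 control (blue) and 3 8-Br-cAMP arrays (red), with samples 1, 2 and 3 as squares, circles and triangles, the group mean as a bar and the filter level of 5.51 as a dashed line, ordered by log2 difference. IFI44 and PSMB9 separate cleanly downwards and OAS1 upwards, while BST2, IFI6 and IFI16 have their widest gap between sample 1 and the others.

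Among the large GTPases GBP1 differed most. GBP1, a guanylate-binding protein induced by interferon gamma that coats pathogens inside cells, had 84.5, 188.8 and 190 on controls and 69.6, 60 and 58.9 on treated arrays. The groups did not overlap, and control 1 was the lowest control. Its log2 difference was -1.21 (95% interval -2.10 to -0.32, paired adjusted p = 0.134), with -0.28 in pair 1 against -1.65 and -1.69 in pairs 2 and 3. Its other kept probe set differed by -0.60 with overlapping groups (paired adjusted p = 0.487) and by 0.48 in pair 1. The Mx proteins, which trap viral nucleocapsids, differed by -0.42 for MX1 and -0.17 for MX2, with paired adjusted p of 0.585 and 0.870. The sign of MX2 turned under quantile and common-median scaling. GBP2 lay below the filter level at 2.1 to 27.3.

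The 3 antigen-processing genes of the list, PSMB8, PSMB9 and TAP1, were lower in every pair. Some related genes outside the list were not. TAP2 differed by -0.16 (0.51 in pair 1) and TAPBP by -0.24 (0.07 in pair 2), both with overlapping groups. PSMB10 lay below the filter level and ran from 2.98 in pair 1 to -3.51 in pair 3. PSMB8, TAP1 and PSMB9 follow one another in that order on the chromosome among protein-coding genes in RefSeq. PSMB8 and PSMB9 encode catalytic subunits of the immunoproteasome, which cuts peptides for MHC class I, and TAP1 is a subunit of the transporter that carries them into the endoplasmic reticulum. PSMB8 had 160.7, 204.2 and 267 on controls and 66.7, 99.3 and 101.2 on treated arrays. PSMB9 had 103.5, 94.4 and 76.3 on controls and 37.6, 22.5 and 22.6 on treated arrays. TAP1 had 216.7, 186.9 and 183.3 on controls and 155, 83.6 and 75.1 on treated arrays. In PSMB8, PSMB9 and TAP1 each control was above each treated array. The log2 differences were -1.24 (95% interval -1.81 to -0.66), -1.76 (-2.72 to -0.81) and -0.98 (-1.62 to -0.33). None passed, with paired adjusted p of 0.0504, 0.0701 and 0.108, and with the number 1 arrays left out they passed (0.00345, 0.0132 and 0.00368).

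Among nuclear body, sensor and TRIM genes, IFI16 differed most. IFI16, a nuclear sensor of foreign DNA, had 39.9, 164.7 and 117.9 on controls and 38.8, 673.8 and 669.5 on treated arrays. 8-Br-cAMP 1 was the lowest of the 6 and the other 2 treated arrays were far above all controls. The difference was 1.5 on the log2 scale (95% interval 0.34 to 2.66, paired adjusted p = 0.150), with -0.04 in pair 1, 2.03 in pair 2 and 2.51 in pair 3. Its other 2 probe sets were also low on 8-Br-cAMP 1 and high on the other treated arrays, with 18.8, 678.4 and 669.7 on treated arrays in one and 1.7, 254.7 and 285.6 in the other. Without the number 1 arrays IFI16 was higher by 2.27 (adjusted p = 9.02e-05). SP100 and PML, which build nuclear bodies, and TRIM14 differed by 0.02, -0.34 and -0.33 with paired adjusted p of 0.982, 0.668 and 0.682. The sign of SP100 turned on the spike-in scale and in its other kept probe set. Further probe sets of TRIM14 and SP100 lay below the filter level and were not tested. They differed by -2.79, -2.12 and 0.16 for TRIM14 and by -1.59, -0.19 and 0.44 for SP100. TRIM22 lay below the filter level at 1.8 to 36.9.

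The remaining genes, named only for their induction by interferon, held 2 of the 3 genes that fell. IFI44L had 250.7, 196.9 and 281.5 on controls and 97.2, 24.8 and 25.1 on treated arrays, with no overlap. Its treated mean lay below the filter level, so the size of the fold is imprecise. The paired fit gave a 6.12-fold fall, or -2.61 on the log2 scale (SE 0.442, adjusted p = 0.0359), and without the block the adjusted p was 0.156. Its neighbour IFI44, with no protein-coding gene between them, had 412.6, 332.4 and 330.6 on controls and 122.6, 116 and 126.9 on treated arrays. Both groups were tight and far apart, and IFI44 fell 2.93-fold (log2 difference -1.55, SE 0.219, adjusted p = 0.0238, and 0.0910 without the block). A second IFI44 probe set fell as well (-1.65, paired adjusted p = 0.0339).

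IFI27, a mitochondrial protein, had 346.8, 146.3 and 137.5 on controls and 190.3, 53.7 and 31.8 on treated arrays. Each treated array was below its same-numbered control, yet 8-Br-cAMP 1 lay above controls 2 and 3. Its log2 difference was -1.47 (95% interval -2.23 to -0.71, paired adjusted p = 0.0612). IFI35 had 85.1, 155.1 and 122.1 on controls and 92.1, 47.9 and 46.9 on treated arrays and differed by -0.99 (paired adjusted p = 0.242). IFI6, an inhibitor of apoptosis, had 868.5, 172.9 and 155.4 on controls and 806.6, 82.6 and 112.5 on treated arrays and differed by -0.55 (paired adjusted p = 0.280). In IFI6 the gap between the number 1 arrays and the rest exceeded that between the groups, and the difference was 0.26 without control 1 and 0.08 without 8-Br-cAMP 2.

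In BST2, IFI6, IFI27 and IFI16 the number 1 array was over 1 log2 unit from the mean of arrays 2 and 3, in the same direction in both groups. BST2, IFI6 and IFI27 were high on the number 1 arrays and IFI16 was low. That is 4 of 31 genes (12.9%), against 10.8% of all genes tested. Control 1 differed from controls 2 and 3 by 2.05 in BST2, 2.41 in IFI6, 1.29 in IFI27 and -1.80 in IFI16. For 8-Br-cAMP 1 these values were 3.66, 3.06, 2.20 and -4.11. The 3'/5' ratios given above moved with these arrays, and their part was not tested.

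**Figure D4:**
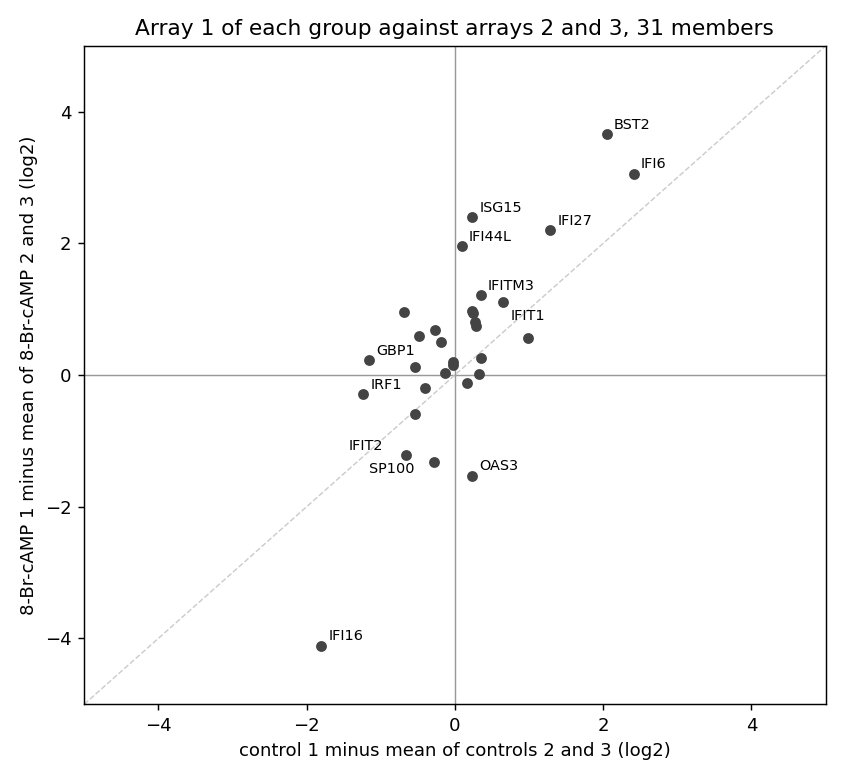
Log2 distance of array 1 from the mean of arrays 2 and 3 in controls (horizontal axis) and after 8-Br-cAMP (vertical axis), 1 point per gene for the 31 interferon-induced genes above the filter. BST2 and IFI6 lie at the upper right and IFI16 at the lower left, with array 1 on the same side in both groups in these genes. In others, such as GBP1 and OAS3, the distances had opposite signs.

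Of the tested genes in 4 further lists around the pathway, CALR passed the paired fit and no other did. Of 14 measured interferon ligand genes 13 lay below the filter level, and IFNA17, the other, differed by 0.05 (paired adjusted p = 0.940). The IFNA17 probe set carries the same suffix as those of IFITM2 and IFITM3, so it may share signal with related transcripts. IFNB1, for interferon beta, had signals of 2.2 to 6.4. Of 13 tested receptor, kinase and feedback genes 0 passed in either direction (median -0.22), and 1 was higher and 5 lower without the number 1 arrays, where 12.8% and 20.5% of all genes were. The smallest paired p among them belonged to PTPN6, a phosphatase that dampens cytokine receptors (-0.87, adjusted p = 0.138), PIAS1, an inhibitor of STAT binding (-0.47, adjusted p = 0.240), and STAT3 (-0.58, adjusted p = 0.255).

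Of 12 tested sensors and adaptors 0 passed (median -0.44), and 0 were higher and 4 lower without the number 1 arrays, beside the same shares of all genes. TBK1, the kinase that activates IRF3, differed by -0.87 (paired adjusted p = 0.0757), with 714.7, 827.5 and 802.4 on controls and 323.5, 490.6 and 493.9 on treated arrays. IFIH1, which encodes the RNA sensor MDA5, differed by -1.20 (adjusted p = 0.143), and MYD88, an adaptor of Toll-like receptors, by -0.81 (adjusted p = 0.169).

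Of 13 tested genes of the MHC class I path 1 rose in the paired fit, CALR, a chaperone of the endoplasmic reticulum (1.22, adjusted p = 0.0262), and 0 fell (median 0.02), where 1.73% of all genes rose and 1.96% fell. Without the number 1 arrays 3 were higher and 2 lower, where 12.8% and 20.5% of all genes were. The class I light chain gene B2M had 11051, 8039.3 and 8954 on controls and 10475.3, 9554.7 and 9821.9 on treated arrays, with overlapping groups (paired adjusted p = 0.760), and was named after its values were seen. Named likewise, the peptide trimmer ERAP2 differed by -1.42 (adjusted p = 0.0816) and the proteasome activator PSME1 by -0.77 (adjusted p = 0.0859). Other genes of this path went the other way, among them PDIA3 (0.72, adjusted p = 0.207) and HLA-E (0.33, adjusted p = 0.364).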

How the data were processed

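Signal intensities, 1 per probe set and array, were deposited by the authors and made with GCOS 1.3, per the submitters' processing notes. The arrays' 2% trimmed means lay between 249.996 and 250.155, so the values were used as deposited. Of 22277 probe sets 62 array controls were left out. GEO's platform annotation gave 1 symbol for 19064 probe sets, several for 1043 and none for 2108, and probe sets with several were not used for gene names. Log2 intensities above the 40th percentile of mean signal were kept (13329 probe sets, 7927 genes at 1 probe set each). The model was limma's (version 3.58.1, R 4.3.3; lmFit, eBayes with trend, two-sided), with Benjamini-Hochberg adjustment over all kept probe sets and a threshold of 0.05. As a check of pairing, each array's deviation from its group mean was correlated with that of its same-numbered partner over probe sets, giving 0.603, 0.378 and 0.538. Of the 3 control arrays 2 correlated best with the treated array of their own number. A shift shared by the number 1 arrays can also make arrays 2 and 3 correlate across the groups, whichever is paired with which. The check therefore cannot show that 2 belongs with 2 and 3 with 3. Pairing by number in the paired fit rests on the data and not on the labels. Adjusted p-values are limma's, and 95% intervals are those of the paired fit.

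Genes described on every array were those called in the fit without the block, with it or without the number 1 arrays, up to 16 by paired p, then those with no overlap, up to 20. In each list around the pathway those called in the paired fit, or else the 3 with the smallest paired p, were named. Genes named beyond this were chosen after their values were seen. The members and lists were chosen with earlier results of these data known. The fits were tested on simulated data. Alternatives covered scaling, filter, pseudocount, variance model, block and arrays left out. The number of arrays limits the precision.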

Additional observations from a re-analysis of the deposited data

How the results depend on the processing

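Without the block limma called 0 probe sets in either direction, with 1474 at an unadjusted p under 0.05, and 0 of the 31 tested interferon-induced genes. With the replicate block, 207 probe sets were higher and 221 lower, and 1 of the interferon-induced genes was higher and 3 lower. The block combined with quantile normalization gave 185 and 154 (1 and 2 of the list, EIF2AK2 losing its call at an adjusted p of 0.0611), and combined with a common median 103 and 39 (0 of the list, at adjusted p of 0.0577 for OAS1 to 0.108 for EIF2AK2). Still without the block, counts higher and lower were 2 and 12 on the spike-in scale, 9 and 8 with a common median, 10 and 7 after quantile normalization, 10 and 8 with the stricter filter, 17 and 11 with a pseudocount of 16, and 0 and 1 in the unmoderated test, each with 0 of the list. No filter, no trend and robust variances gave 0. Without both number 1 arrays they were 1614 and 2489 (3 and 16 of the list). With 1 array left out they ran from 0 to 139 and from 0 to 146, with 0 to 4 of the list lower and 0 higher. The highest counts came without 8-Br-cAMP 1, when IFI44, IFI44L, ISG15 and PSMB9 passed. A rule of 2-fold or more and an unadjusted p below 0.05 gave 333 and 547 (1 and 7 of the list).

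The median over the 31 genes was -0.42. It ran from -0.59 to -0.31 with 1 array left out, and was -0.79 on the spike-in scale, -0.19 with a common median, -0.29 after quantile normalization and -0.65 without both number 1 arrays. The spike-in scale moved the median of all kept probe sets from -0.13 to -0.50, and a common median moved it to 0.09. Of the genes the naming rule chose, IFI6 alone changed sign in any alternative (range -1.57 to 0.26 with 1 array left out). Genes near 0 did so more often. On the spike-in scale IFIT2 was -0.22, IFIT3 -0.25, IFIT5 -0.14 and SP100 -0.35. After quantile normalization and with a common median, in that order and alike with the block, MX2 was 0.06 and 0.05, OAS3 0.03 and 0.17, and OASL 0.06 and 0.07. Without both number 1 arrays IFIT3 was -0.19 and OAS3 0.53. Other kept probe sets gave 0.08 for OASL and -0.09 for SP100. With 1 array left out the ranges were -0.07 to 0.55 for IFIT2, -0.11 to 0.30 for IFIT3, -0.37 to 0.02 for MX2, -0.31 to 0.46 for OAS3, -0.53 to 0.17 for OASL and -0.27 to 0.46 for SP100. Causes were not tested. Low signals limit IFIT1, PSMB9, USP18 and the other genes near or below the filter level.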
